A study of Homo sapiens with 12 samples.

Results

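The genes described here are 44 genes listed as neuronal. Neurons use many of them to store and release peptides and transmitters or to build axons and dendrites. They were chosen by gene symbol from a list of granins, synaptic vesicle genes, stathmins, neurofilaments and other neuronal genes. All 44 were found among the 25146 genes of the deposited table. The choice was made with earlier results of these data known, so the counts below are no test of the list as a whole. RNA was sequenced from Jurkat and Molt-4, 2 established lines of human T-cell acute lymphoblastic leukaemia, each left untreated or treated with 2 µM chidamide (tucidinostat), an oral benzamide that inhibits HDAC10 and the class I histone deacetylases HDAC1, HDAC2 and HDAC3. The design has 4 groups of 3 libraries: untreated Jurkat, treated Jurkat, untreated Molt-4 and treated Molt-4, and asks what the inhibitor does to the transcriptome of each line. The labels name no vehicle for the untreated cultures, and each line is a single model of the disease. They give 48, 49 and 50 h for treated replicates 1, 2 and 3 where the protocol gives 48 h, so that time and replicate number cannot be told apart.

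Granins are acidic proteins of the dense-core granules in which neurons and endocrine cells pack peptide hormones. Release of granules and synaptic vesicles needs SNARE proteins that fuse the membranes (SNAP25, syntaxin, VAMP), synaptotagmins that sense calcium, complexins that clamp the SNARE complex and RAB3 proteins that dock the vesicle, while neurofilaments, tau, MAP2 and collapsin response mediator proteins (CRMPs) shape the cytoskeleton of the axon and the dendrite. Outside the nervous system many of these genes are held silent by the repressor REST, which binds the RE1 element and recruits histone deacetylases through the CoREST and SIN3 complexes. Chidamide inhibits deacetylases of these complexes, which is stated as background and was not measured.

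The values are FPKM, fragments scaled to the length of the gene and to the size of the library, and levels are therefore compared between genes per length. FPKM alone gives neither a sequencing depth nor a counting error. Total FPKM lay between 698435 and 869059 per library, and 11643 to 13228 genes had at least 1 FPKM. Untreated Jurkat replicate 3 stood somewhat apart from the other 2 libraries of its group, and the share of 7SL RNA in total FPKM was 10.1% for untreated Molt-4 replicate 3 and 2.25% to 5.35% for the rest. The labels do not state whether replicates are separate cultures, so each p-value rests on a spread between libraries that may be technical. All 10 markers of the T lineage that were looked at had at least 1 FPKM in every library.

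Promoter sequences are shown for NRGN, TMEM59L and SHISA2, which had the 3 largest changes of the 44 genes in Molt-4 and 3 of the 4 largest in Jurkat, and for SYN1 and VGF, which rose in both lines and hold the matches named below. They were picked after the values and matches were seen. They come from RefSeq with coordinates of GRCh38.p14, a later build than the hg19 of the expression table, and are written 5′ to 3′ in the direction of the gene. Positions count from the RefSeq start, with -1 as the last base before it, and bases that GENCODE places in a transcript before that start are left out. Capitals mark exact matches, on either strand, to GGGCGG (GC box), TGACGT (core of the cyclic AMP response element, CRE), CCAAT (the CCAAT box), the TATA element TATAA, and an RE1-like pattern that is AGCNCC followed after any 2 bases by GGNNAG.
NRGN (chr11:124739692-124739845, plus strand, positions -250 to -97): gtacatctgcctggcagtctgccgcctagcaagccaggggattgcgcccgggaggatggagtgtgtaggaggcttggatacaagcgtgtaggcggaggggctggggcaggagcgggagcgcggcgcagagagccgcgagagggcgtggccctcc
SHISA2 (chr13:26052017-26052266, minus strand, positions -250 to -1): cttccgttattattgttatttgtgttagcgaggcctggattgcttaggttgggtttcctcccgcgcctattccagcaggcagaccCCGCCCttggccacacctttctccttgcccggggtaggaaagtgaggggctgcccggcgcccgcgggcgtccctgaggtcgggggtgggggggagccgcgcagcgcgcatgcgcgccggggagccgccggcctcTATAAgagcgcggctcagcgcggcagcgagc
TMEM59L (chr19:18612620-18612848, plus strand, positions -250 to -22): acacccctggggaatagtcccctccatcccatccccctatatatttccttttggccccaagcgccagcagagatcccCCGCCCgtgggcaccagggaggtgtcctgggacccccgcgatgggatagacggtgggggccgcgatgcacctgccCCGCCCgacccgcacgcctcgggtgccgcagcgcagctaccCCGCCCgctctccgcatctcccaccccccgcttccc
SYN1 (chrX:47619944-47620107, minus strand, positions -250 to -87): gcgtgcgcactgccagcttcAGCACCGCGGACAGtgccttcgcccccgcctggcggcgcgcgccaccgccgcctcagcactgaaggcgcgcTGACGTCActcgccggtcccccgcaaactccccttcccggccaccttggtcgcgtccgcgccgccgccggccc
VGF (chr7:101165594-101165819, minus strand, positions -250 to -25): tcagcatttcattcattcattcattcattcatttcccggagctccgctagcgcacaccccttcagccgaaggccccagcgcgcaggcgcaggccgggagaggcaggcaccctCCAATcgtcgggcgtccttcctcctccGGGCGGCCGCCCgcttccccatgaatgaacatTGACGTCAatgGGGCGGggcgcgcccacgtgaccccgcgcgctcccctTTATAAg

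A promoter window of 300 bases, 250 before and 50 after the start, was found for 30 of the 44 genes. The others are SCG2, CHGB, SYT7, SNAP25, CPLX1, STMN2, STMN4, NEFL, NEFM, NEFH, MAPT, DPYSL2, ENC1 and ELAVL3. Some genes have several starts, so the 30 genes have 44 windows, and counts of windows are set beside the share of all 35116 windows. The GC box was present in 25 of the 44 windows, while 45% of all windows held it. CCAAT was present in 12 of the 44 (34.6% of all), TATAA in 10 (20.4%) and the CRE core in 6 (7.98%), which belong to CHGA, RAB3A, RTN1, SYN1, TMEM59L and VGF. The RE1-like pattern was found in 2 of the 44, of MAP1B and SYN1 (0.871% of all). In SYN1 it reads AGCACCGCGGACAG from -230 to -217, and the TGACGTCA that follows matches the CRE core on both strands, as it does in VGF. The NRGN stretch holds no match, while a GC box and a CCAAT lie in NRGN windows outside it. The TMEM59L stretch holds 3 GC boxes, and the TATAA of SHISA2 lies at -31 to -27. These are descriptions of letters in a window, and the windows of a gene with several starts are not independent.

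In each line far more of the 44 genes rose than fell with chidamide. In Jurkat 29 were higher and 2 lower, where 25.1% and 17.1% of the 20104 genes tested were higher and lower (31 of 44 against 42.2% in either direction). In Molt-4 25 were higher and 2 lower, where the shares of all genes were 30.5% and 16.7% (27 of 44 against 47.2%). In both lines 21 genes were higher, against 16.2% of all genes. The shares of all genes given here for each line also apply to the counts by role and by list further on. Changes of at least 1 on the log2 scale were called upward for 20 of the 44 in Jurkat (5.86% of all genes) and 15 in Molt-4 (8.72%), and downward for 0 of the 44 in Jurkat (1.72%) and in Molt-4 (0.905%). Both treatment comparisons were made in 1 limma fit with Benjamini-Hochberg adjustment over all 20104 genes and a call at an adjusted p under 0.05. The median change of the 44 genes was 0.87 in Jurkat and 0.44 in Molt-4 on the log2(FPKM + 1) scale, beside 0.03 and 0.06 for all genes tested. For a gene near 0 this scale shrinks the fold. With quantile normalization the medians of the 44 were 0.58 and 0.17, and 20 were higher and 5 lower in Molt-4. That scaling also turned the balance over all genes, from 5050 higher and 3438 lower to 4043 and 4431 in Jurkat, and from 6132 and 3354 to 3914 and 5258 in Molt-4. In bulk RNA, more cells with a transcript and more of it per cell cannot be told apart.

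Summed over the 44 genes, the level was 152, 158 and 159 FPKM in the untreated Jurkat libraries, from lowest to highest, and 551, 556 and 568 in the treated ones. In Molt-4 it was 177, 184 and 188 untreated and 479, 483 and 492 treated. A few genes carried much of the rise in these sums. In Jurkat mean SHISA2 went from 6.33 to 139 FPKM, NRGN from 6.74 to 127 and ENC1 from 1.33 to 43.1. In Molt-4 mean ENC1 went from 9.87 to 103 FPKM and NRGN from 1.34 to 53. The number with a group mean of at least 1 FPKM went from 14 to 29 in Jurkat and from 16 to 24 in Molt-4. Genes under 1 FPKM in every untreated library and at 1 or more in every treated library numbered 12 in Jurkat and 7 in Molt-4, beside 2.92% and 4.3% of all genes tested. All treated libraries lay above all untreated ones for 30 of the 44 in Jurkat (29.4% of all genes) and 29 in Molt-4 (35%), and below them for 1 (19.5%) and 2 (20%). Of the genes with an untreated mean under 1 FPKM, 18 of 30 were higher in Jurkat (23.9% of all such genes) and 14 of 28 in Molt-4 (33.5%). Of those with an untreated mean of at least 1 FPKM, 11 of 14 were higher in Jurkat (26% of all such genes) and 11 of 16 in Molt-4 (28.5%). STMN3, VAMP2 and DPYSL2 had the highest means in untreated Jurkat and STMN3 and NEFH in untreated Molt-4, whereas SHISA2 and NRGN led in treated Jurkat and ENC1 and STMN3 in treated Molt-4.

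**Figure D1:**
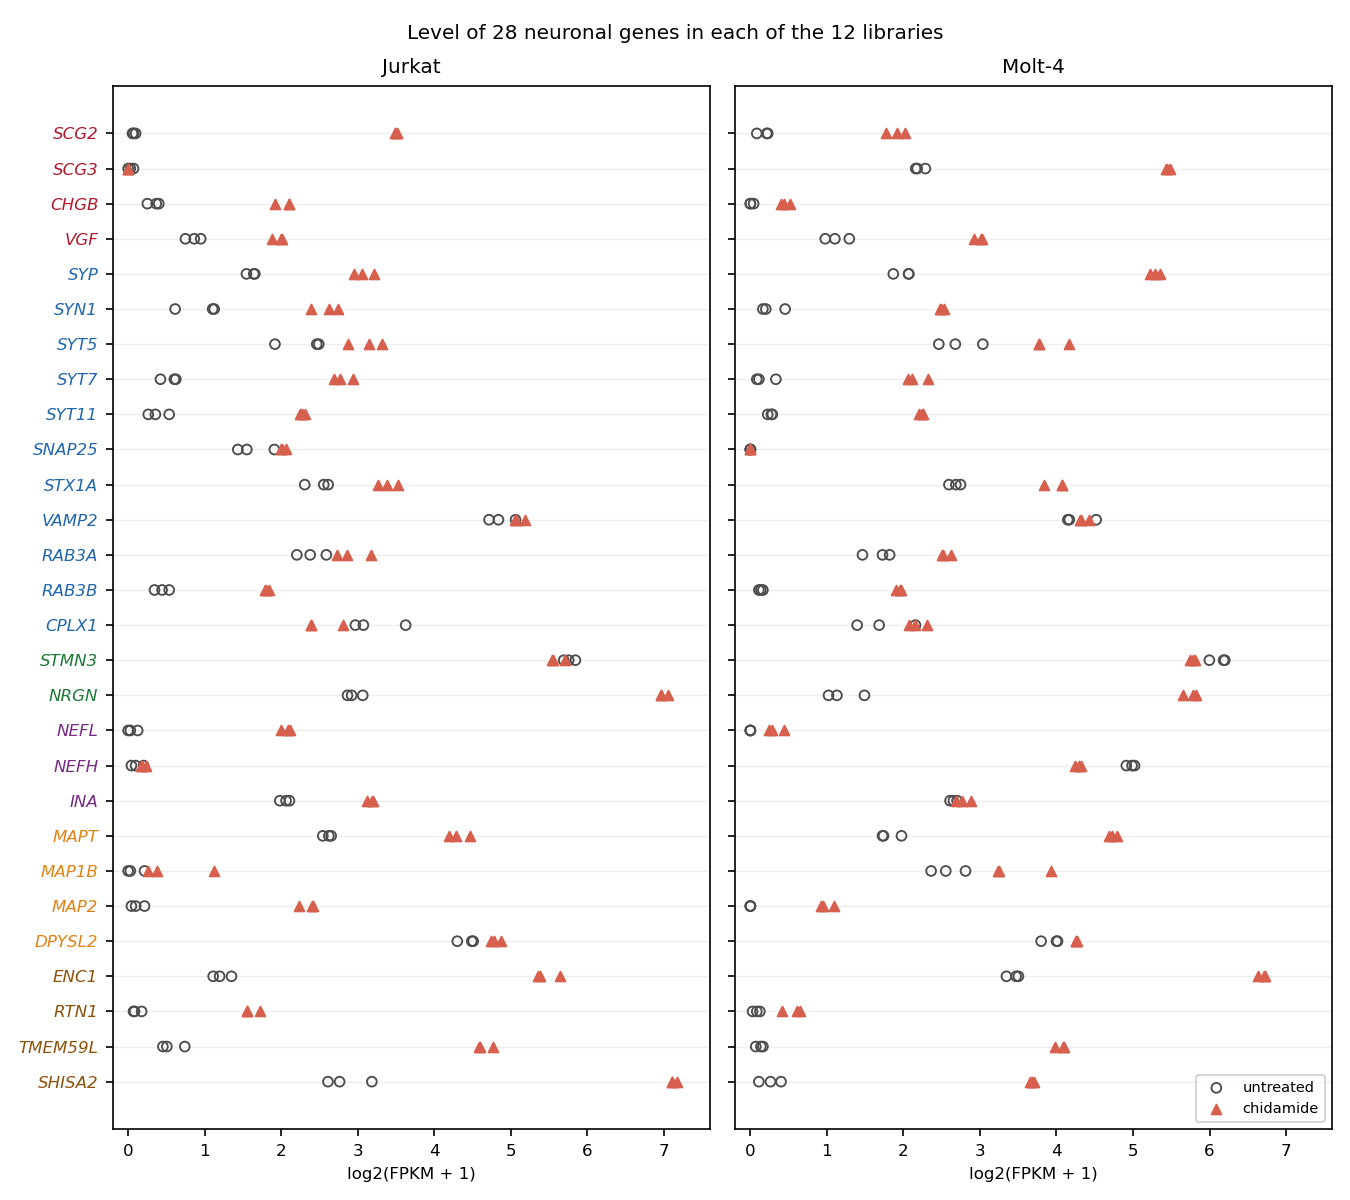
Level of the 28 genes with a group mean of at least 2 FPKM in each of the 12 libraries, as log2(FPKM + 1) on the x axis, with circles for untreated and triangles for treated libraries and gene names coloured by role as in the plot of responses. The triangles of NRGN, ENC1, TMEM59L and SHISA2 lie far to the right of the circles in both lines, those of NEFH lie to the left in Molt-4, and SNAP25 is at 0 in all 6 Molt-4 libraries.

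Of the 6 granins and granule proteins, 3 were higher and 1 lower in Jurkat and 4 were higher in Molt-4, with SCG2 at the highest treated level in Jurkat and SCG3 in Molt-4. SCG2, which encodes secretogranin II, the precursor of secretoneurin, read 0.05, 0.04 and 0.07 FPKM in untreated Jurkat replicates 1, 2 and 3 and 10.45, 10.45 and 10.18 in the treated ones. In Molt-4 it read 0.06, 0.16 and 0.17 untreated and 2.76, 2.43 and 3.04 treated. The groups did not overlap in either line, and the log2(FPKM + 1) change was 3.43 ± 0.08 (SE) in Jurkat and 1.73 ± 0.08 in Molt-4 (adjusted p = 1e-09 and 5.26e-08). SCG3, secretogranin III, which ties other granins to the granule membrane, moved in Molt-4, from 3.47, 3.53 and 3.88 FPKM to 42.57, 42.01 and 43.91. Its Molt-4 mean was 11.8-fold higher with treatment (log2 change 3.25 ± 0.08, adjusted p = 6.63e-10). In Jurkat SCG3 was at most 0.05 FPKM in any library and is listed at 0 in all 3 treated ones. CHGB, chromogranin B, a structural granin, read 0.19, 0.32 and 0.29 in untreated Jurkat and 3.29, 3.29 and 2.77 in treated Jurkat (log2 change 1.70 ± 0.07, adjusted p = 2.13e-08). In Molt-4 it rose only to between 0.32 and 0.43 FPKM (log2 change 0.44 ± 0.07, adjusted p = 0.000298). VGF, a neurotrophin-inducible peptide precursor, read 0.93, 0.82 and 0.68 in untreated and 2.68, 3.01 and 3.04 in treated Jurkat, and 1.45, 1.15 and 0.97 in untreated and 6.55, 7.13 and 7.1 in treated Molt-4. All treated libraries lay above all untreated ones, with a 5.82-fold higher mean in Molt-4 (log2 changes 1.11 ± 0.10 and 1.86 ± 0.10, adjusted p = 9.02e-06 and 1.59e-07). CHGA, chromogranin A, lay between 0 and 0.43 FPKM and was called in neither line, and SCG5, the chaperone 7B2 of prohormone convertase 2, lay between 0.29 and 0.8 and was lower in treated Jurkat, with overlapping groups (adjusted p = 0.0255). That call ended in 6 alternatives, among them those without untreated replicate 2 or 3 or treated replicate 1 or 3 (adjusted p 0.0692 to 0.097, over the alternatives 8.29e-05 to 0.113).

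Of the 15 synaptic vesicle and exocytosis genes, 12 were higher and 1 lower in Jurkat, and 8 were higher in Molt-4. SYP, synaptophysin, the standard marker protein of synaptic vesicles, read 2.12, 2.15 and 1.92 FPKM in untreated and 6.7, 8.24 and 7.34 in treated Jurkat. The Molt-4 values were 3.19, 2.65 and 3.2 untreated and 36.32, 38.21 and 39.82 treated. Its mean was thus 3.6-fold higher in Jurkat and 12.6-fold higher in Molt-4 (log2 changes 1.46 ± 0.09 and 3.29 ± 0.09, adjusted p = 6.39e-07 and 1.74e-09). SYN1, synapsin I, which tethers vesicles to actin, read 1.15, 0.53 and 1.18 in untreated and 5.67, 5.16 and 4.24 in treated Jurkat, and 0.15, 0.37 and 0.12 in untreated and 4.8, 4.57 and 4.6 in treated Molt-4. The treated libraries of both lines lay between 4.24 and 5.67 FPKM (log2 changes 1.64 ± 0.15 and 2.23 ± 0.15, adjusted p = 9.27e-06 and 7.55e-07). SYN1 shares 9.7% of its exon bases with other genes, including ARAF on the opposite strand, and the strand of counting is not given in the sources used here, so the share of such reads was not tested. SYN2, synapsin II, rose in Jurkat (adjusted p = 3.69e-07), where its highest library had 1.41 FPKM, and was listed at 0 in 5 of 6 Molt-4 libraries.

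Synaptotagmins are the calcium sensors and related proteins of vesicle fusion. SYT7, a slow sensor also found on lysosomes, read 0.34, 0.52 and 0.54 FPKM in untreated and 6.65, 5.8 and 5.46 in treated Jurkat. Untreated Molt-4 had 0.08, 0.26 and 0.06, and treated Molt-4 had 4.01, 3.16 and 3.34 (log2 changes 2.25 ± 0.11 and 1.99 ± 0.11, adjusted p = 1.13e-07 and 1.97e-07). SYT11, a synaptotagmin that does not bind calcium, read 0.45, 0.2 and 0.28 in untreated and 3.76, 3.97 and 3.81 in treated Jurkat, and 0.17, 0.22 and 0.21 in untreated and 3.61, 3.75 and 3.78 in treated Molt-4. Both genes went from under 1 to over 3 FPKM in every treated library (SYT11 log2 changes 1.89 ± 0.08 and 1.97 ± 0.08, adjusted p = 3.88e-08 and 1.86e-08). SYT5, a sensor of dense-core granules, was already expressed, at 4.52, 4.62 and 2.78 FPKM in untreated Jurkat and 5.4, 7.21 and 4.51 in untreated Molt-4. It read 7.84, 6.31 and 8.94 in treated Jurkat and 16.98, 12.66 and 12.62 in treated Molt-4, above every untreated library of the same line (adjusted p = 0.00759 and 0.000718). The Jurkat call ended with quantile normalization (adjusted p = 0.0634, over the alternatives 0.00327 to 0.0634). SYT1, the fast sensor of transmitter release, and SYT4 were higher in treated Jurkat at levels of at most 1.61 and 0.25 FPKM (adjusted p = 0.0023 and 0.0284). The spread of SYT1 was large there, with 0.6, 1.61 and 0.52 FPKM, and SYT4 is listed at 0 in the other 9 libraries and lost its call with the Jurkat libraries alone and without any 1 of the untreated Jurkat replicates (adjusted p 0.0615 to 0.151, over the alternatives 0.00165 to 0.151).

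Among the SNARE proteins and their partners, STX1A rose in both lines and SNAP25 in Jurkat, where CPLX1 fell. SNAP25, the SNARE that botulinum toxin A cleaves, is listed at 0 in all 6 Molt-4 libraries. In Jurkat it read 1.93, 1.7 and 2.76 FPKM untreated and 3.04, 2.98 and 3.18 treated (log2 change 0.39 ± 0.10, adjusted p = 0.00971), a call that ended with a pseudocount of 0.1 or a fit of the Jurkat libraries alone and whose direction turned with quantile normalization (-0.046, adjusted p over the alternatives 4.38e-05 to 0.632). STX1A, syntaxin 1A of the plasma membrane, read 3.95, 5.12 and 4.88 in untreated and 10.53, 9.42 and 8.61 in treated Jurkat, and 5.43, 5.04 and 5.71 in untreated and 15.76, 13.27 and 15.82 in treated Molt-4. Its mean was 2.05-fold and 2.77-fold higher (adjusted p = 7.25e-05 and 3.54e-06). VAMP2, the vesicle SNARE and the most abundant of the exocytosis genes in both untreated lines, read 25.27, 27.62 and 32.4 in untreated and 32.51, 35.38 and 32.14 in treated Jurkat. It read 16.73, 16.96 and 21.92 in untreated and 20.5, 18.84 and 18.97 in treated Molt-4. The groups overlapped in both lines and neither difference passed the test (0.23, 95% interval -0.02 to 0.47, and 0.07, -0.17 to 0.32), although the Jurkat difference passed with equal totals without 7SL RNA or without untreated replicate 3 (adjusted p = 0.0329 and 0.0364, over the alternatives 0.0329 to 0.373). CPLX1, complexin 1, was the exception in direction: it read 11.35, 7.42 and 6.83 in untreated and 4.26, 5.98 and 4.26 in treated Jurkat, and 2.21, 1.63 and 3.46 in untreated and 3.46, 3.94 and 3.19 in treated Molt-4. The Jurkat fall (-0.69 ± 0.22, adjusted p = 0.0277) lost its call in 5 alternatives, among them those without untreated replicate 1, treated replicate 1 or treated replicate 3 (adjusted p = 0.11, 0.0931 and 0.092, over the alternatives 0.0102 to 0.11) and with the replicate number as a block (0.0518). The Molt-4 difference was called only without untreated replicate 3 (adjusted p = 0.0369, over the alternatives 0.0369 to 0.665). CPLX2 was at most 0.09 FPKM and was called in neither line.

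Both RAB3 genes, which encode small GTPases of the vesicle surface, rose in both lines. RAB3A read 4.2, 3.61 and 5.02 FPKM in untreated and 5.66, 8 and 6.28 in treated Jurkat, and 1.76, 2.53 and 2.31 in untreated and 5.13, 4.7 and 4.69 in treated Molt-4 (adjusted p = 0.0122 and 0.000527). The Jurkat call of RAB3A ended with quantile normalization, with the Jurkat libraries alone and without untreated replicate 2 (adjusted p = 0.166, 0.0607 and 0.0505, over the alternatives 0.00593 to 0.166). RAB3B read 0.27, 0.36 and 0.45 in untreated and 2.47, 2.57 and 2.45 in treated Jurkat, and 0.08, 0.12 and 0.1 in untreated and 2.73, 2.92 and 2.88 in treated Molt-4. Untreated RAB3B was 0.45 FPKM or less and treated RAB3B 2.45 or more in every library (adjusted p = 9.1e-08 and 8.83e-09).

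NRGN, neurogranin, a calmodulin-binding protein of the dendritic spine, made one of the largest changes in both lines. It read 6.29, 6.57 and 7.37 FPKM in untreated Jurkat and 123.78, 124 and 131.92 in treated Jurkat. In the Molt-4 libraries it went from 1.81, 1.03 and 1.19 to 55.73, 49.41 and 53.92. The mean was 18.8-fold higher in Jurkat and 39.5-fold higher in Molt-4 (log2 changes 4.04 ± 0.11 and 4.54 ± 0.11, adjusted p = 1.98e-09 and 7.67e-10). Stathmins bind tubulin and destabilize microtubules. STMN3 (SCLIP) was among the highest of the 44 genes in every group, with 56.46, 50.68 and 53.07 in untreated and 51.05, 45.67 and 45.8 in treated Jurkat and with 71.69, 72.48 and 62.89 in untreated and 54.88, 52.68 and 54.24 in treated Molt-4. It fell in Molt-4, where the groups did not overlap (-0.35 ± 0.07, adjusted p = 0.0013). The Jurkat difference (-0.17, 95% interval -0.31 to -0.02, adjusted p = 0.0664) was called with the replicate number as a block (0.0443) and without treated replicate 1 or untreated Molt-4 replicate 3 (0.0295 and 0.0344, over the alternatives 0.0295 to 0.516). STMN2 (SCG10), a growth-cone stathmin, is listed at 0 in all 6 untreated libraries. It read 0.6, 0.19 and 1.02 in treated Jurkat, a rise (adjusted p = 0.0196) that lost its call with the Jurkat libraries alone and without untreated replicate 1 or 2 or treated replicate 1 or 3 (0.0513 to 0.0823, over the alternatives 0.00158 to 0.0823), and 0.18, 0.17 and 0.83 in treated Molt-4, which was not called (adjusted p = 0.0834). STMN4 was at most 0.48 FPKM and was higher in treated Molt-4, a call that ended with quantile normalization (adjusted p = 0.454, over the alternatives 0.00155 to 0.454). GAP43, a protein of regenerating axons, was 0.1 FPKM or less and listed at 0 in 10 libraries.

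Of the 4 neuronal intermediate filament genes, 3 rose in Jurkat, while in Molt-4 NEFL rose and NEFH fell. NEFH, the heavy neurofilament chain, was expressed in Molt-4, at 31.45, 30.72 and 29.12 FPKM untreated, and was lower after treatment, at 19.04, 18.66 and 17.86. No treated library reached an untreated one, and the mean was 0.609 of the untreated mean (log2 change -0.69 ± 0.08, adjusted p = 4.27e-05). In Jurkat NEFH was at most 0.18 FPKM. NEFL, the light chain, read 0.02, 0.09 and 0 in untreated and 3.01, 3.34 and 3.24 in treated Jurkat (log2 change 2.02 ± 0.06, adjusted p = 3.98e-09). In Molt-4 it is listed at 0 in all untreated libraries and rose to between 0.18 and 0.36, a call that ended with quantile normalization (adjusted p = 0.136, over the alternatives 0.000192 to 0.136). NEFM, the medium chain, was higher in treated Jurkat (1.66, 1.43 and 2 against 0.71, 0.28 and 0.39; adjusted p = 0.000203) and not called in Molt-4, where it was at most 0.45. INA, internexin alpha, which assembles with the neurofilaments, read 3.31, 3.18 and 2.95 in untreated and 7.74, 8.09 and 8.2 in treated Jurkat (log2 change 1.12 ± 0.08, adjusted p = 1.62e-06). In Molt-4 it read 5.29, 5.5 and 5.1 untreated and 5.81, 6.4 and 5.42 treated, with overlapping groups and a difference of 0.13 (95% interval -0.06 to 0.30, adjusted p = 0.244) that turned to -0.28 with quantile normalization (adjusted p = 0.0267, over the alternatives 0.0267 to 0.521). NEFL, NEFM and NEFH share 12%, 38.9% and 8.8% of their exon bases with genes on the opposite strand, and the part of such reads was not tested.

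Microtubule-associated genes and CRMPs were higher in Jurkat for 4 of 6 and in Molt-4 for 6 of 6. MAPT, tau, the microtubule-binding protein of axons, read 5.16, 4.83 and 5.29 FPKM in untreated and 21.08, 18.51 and 17.26 in treated Jurkat. In Molt-4 it read 2.31, 2.93 and 2.34 untreated and 25.44, 24.81 and 26.74 treated. The mean was 3.72-fold and 10.2-fold higher (log2 changes 1.71 ± 0.09 and 2.92 ± 0.09, adjusted p = 1.98e-07 and 3.53e-09). MAP2, the dendritic microtubule protein, read 0.16, 0.07 and 0.03 in untreated and 4.33, 3.71 and 4.31 in treated Jurkat. It is listed at 0 in untreated Molt-4 and read between 0.89 and 1.14 in treated Molt-4 (adjusted p = 7.14e-09 and 1.69e-06). MAP1B, an axonal microtubule protein, read 4.14, 6.02 and 4.87 in untreated and 8.54, 14.25 and 8.46 in treated Molt-4 (log2 change 0.90 ± 0.25, adjusted p = 0.0119). Treated replicate 2 was far above the other 2, and the call ended without it (0.0501), with a pseudocount of 0.1 (0.134) and with quantile normalization (0.0745, over the alternatives 0.00451 to 0.134). In Jurkat MAP1B was at most 1.18 FPKM and was called only with a pseudocount of 0.1 (adjusted p = 0.012, over the alternatives 0.012 to 0.455). DPYSL2 (CRMP2), which carries tubulin in growing axons and is broadly expressed, read 21.47, 21.76 and 18.71 in untreated and 25.74, 26.5 and 28.17 in treated Jurkat, and 15.15, 15 and 12.92 in untreated and 18.16, 18.08 and 18.27 in treated Molt-4. The groups did not overlap, but the means were only 1.3-fold and 1.27-fold higher (adjusted p = 0.00239 and 0.00435). DPYSL3 (CRMP4) was at most 0.05 FPKM untreated and rose to at most 1.75 in treated Jurkat and 0.86 in treated Molt-4. The Molt-4 call of DPYSL3 ended with quantile normalization (adjusted p = 0.0695, over the alternatives 5.66e-05 to 0.0695). DPYSL4 (CRMP3) is listed at 0 except in treated Molt-4, where it read 0.12, 0.23 and 0.39 (adjusted p = 0.00134).

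The 3 neuronal RNA-binding genes were at most 1.65 FPKM in any library. ELAVL4 (HuD), which stabilizes neuronal mRNAs, is listed at 0 in untreated Jurkat and read 0.73, 1.61 and 1.52 FPKM in treated Jurkat (adjusted p = 0.000696), while in Molt-4 it read 0.21, 0.7 and 0.58 untreated and 1.09, 0.66 and 1.65 treated, with overlapping groups (adjusted p = 0.0598). ELAVL3 (HuC) lay between 0 and 0.71 and the splicing regulator CELF4 between 0.02 and 0.47, and neither was called.

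Of the 5 remaining genes, 4 rose in both lines. SHISA2, an endoplasmic reticulum protein that holds back Wnt and FGF receptors, read 5.11, 5.79 and 8.09 FPKM in untreated and 142.62, 136.74 and 137.08 in treated Jurkat. In Molt-4 it read 0.08, 0.2 and 0.32 untreated and 11.81, 12.11 and 11.62 treated. The Jurkat mean was 21.9-fold higher (log2 changes 4.27 ± 0.13 and 3.42 ± 0.13, adjusted p = 3.98e-09 and 1.2e-08). ENC1, an actin-binding kelch protein first described in neuroectoderm, read 1.29, 1.55 and 1.16 in untreated and 48.77, 39.93 and 40.68 in treated Jurkat, and 10.1, 10.33 and 9.17 in untreated and 104.21, 104.96 and 98.53 in treated Molt-4. The treated mean was 32.3-fold higher in Jurkat and 10.4-fold higher in Molt-4 (log2 changes 4.24 ± 0.09 and 3.25 ± 0.09, adjusted p = 5.24e-10 and 1.48e-09). TMEM59L, a brain-enriched membrane protein, read 0.37, 0.67 and 0.42 in untreated and 23.3, 23.05 and 26.35 in treated Jurkat, and 0.05, 0.1 and 0.12 in untreated and 15.99, 14.83 and 16.13 in treated Molt-4 (log2 changes 4.09 ± 0.10 and 3.93 ± 0.10, adjusted p = 1.11e-09 and 1.09e-09). RTN1, a reticulon of neuroendocrine endoplasmic reticulum, read 0.06, 0.13 and 0.05 in untreated and 1.94, 2.31 and 1.94 in treated Jurkat (adjusted p = 9.31e-08). In Molt-4 it rose to at most 0.57, a call that ended with quantile normalization (adjusted p = 0.16, over the alternatives 0.00014 to 0.16). UCHL1, a ubiquitin hydrolase abundant in neurons, is listed at 0 in 11 of 12 libraries.

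**Figure D2:**
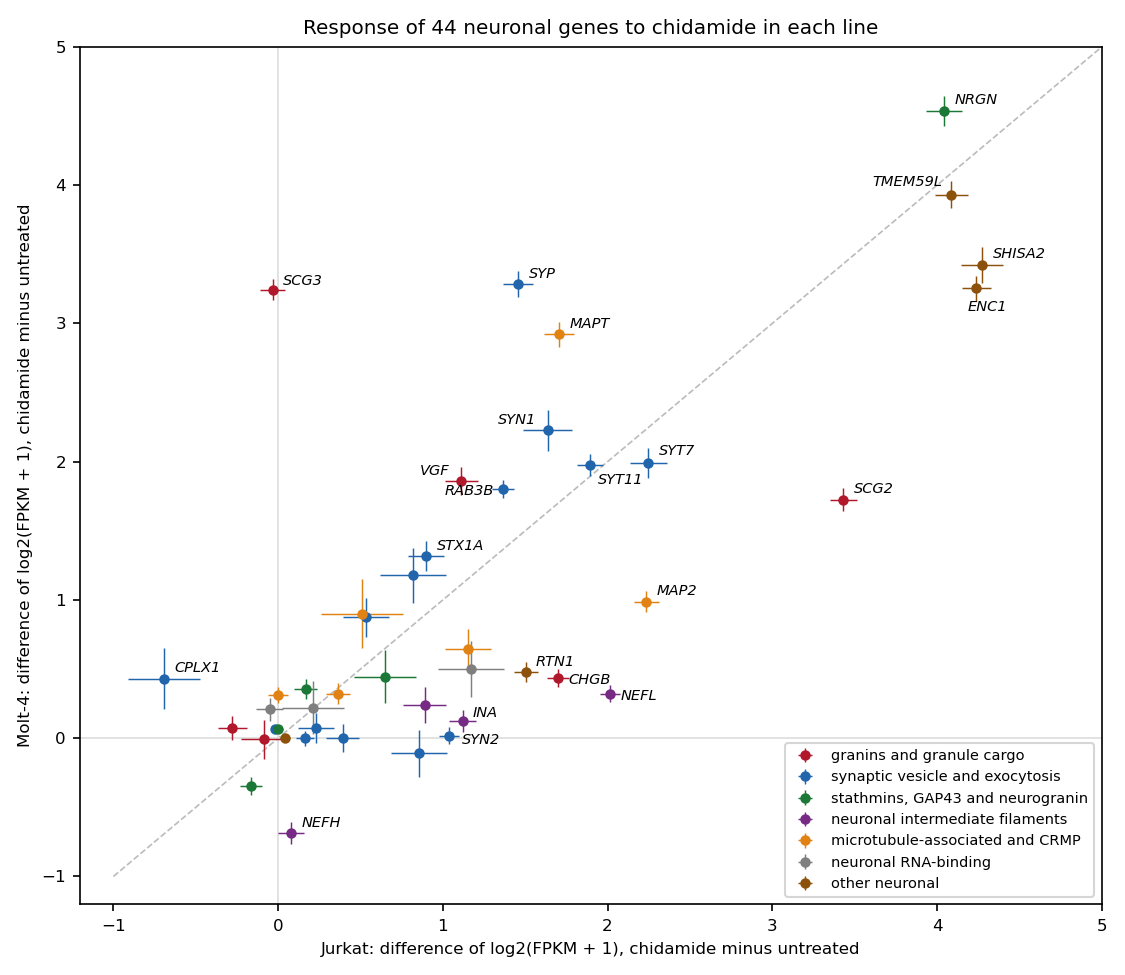
Change with chidamide in Jurkat (x axis) against that in Molt-4 (y axis) for the 44 genes, both as differences of log2(FPKM + 1) with standard errors as bars, colours for roles and a dashed line where both changes are equal. NRGN, SHISA2, ENC1 and TMEM59L lie at the upper right, SCG3 stands alone on the vertical axis at 3.25, and CPLX1 and NEFH lie below 0 in 1 line each.

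The response differed between the lines for 20 of the 44 genes, by the test of the difference itself (response in Molt-4 minus response in Jurkat, in the same fit). It was higher in Molt-4 for 8 and lower for 12, where 15.5% and 9.01% of all genes were called in these directions (24.5% in either; 3110 and 1812 genes, 2395 and 2818 with quantile normalization, and 2643 and 2356 with equal totals without 7SL RNA). Differences of at least 1 on the log2 scale were called for 4 upward and 6 downward (4.64% and 1.34% of all genes). Among the granins SCG3 (3.28 ± 0.11, adjusted p = 3.44e-08) and VGF (0.75 ± 0.14) were higher and SCG2 (-1.71 ± 0.12, adjusted p = 3.38e-06) and CHGB (-1.26 ± 0.09) lower. Among the vesicle genes SYP (1.83 ± 0.13, adjusted p = 5.12e-06) was higher, and SYN2 (-1.02 ± 0.09) lower. All 4 intermediate filament genes were lower, from -1.69 for NEFL to -0.65 for NEFM. The microtubule genes parted, with MAPT higher (1.22 ± 0.13) and MAP2 lower (-1.25 ± 0.11). For TMEM59L the difference was -0.16 (95% interval -0.47 to 0.16), for SYT11 0.08 (-0.17 to 0.33) and for DPYSL2 -0.04 (-0.27 to 0.19), and none of these was called, although TMEM59L was called in the other direction with a pseudocount of 0.1 (0.99, adjusted p = 0.0334, over the alternatives 0.0334 to 0.746). SHISA2 shows how the scale matters for genes near 0 in 1 line. Its difference was -0.85 ± 0.18 (adjusted p = 0.00693) with a pseudocount of 1 and 0.94 with 0.1 (adjusted p = 0.0905, over the alternatives 0.000267 to 0.0905). NRGN had a difference of 0.50 ± 0.16 (adjusted p = 0.0408) that was no longer called in 11 of 19 alternatives. In 9 of them 1 library was left out, which could be any but untreated replicate 1 of either line and treated Molt-4 replicate 2 (adjusted p 0.0614 to 0.0923, over the alternatives 0.00252 to 0.128). The calls of CPLX1 (adjusted p = 0.0246) and NEFM (0.0219) ended in 7 alternatives each. For CPLX1 these were quantile normalization (0.132) and the fits without treated Jurkat replicate 1 or 3 or without replicate 1 or 2 of either Molt-4 group (0.0505 to 0.0622, over the alternatives 0.00984 to 0.132). For NEFM they were a pseudocount of 0.1 (0.468), quantile normalization (0.123) and the fits without untreated Jurkat replicate 2, treated Jurkat replicate 3, untreated Molt-4 replicate 3 or treated Molt-4 replicate 1 or 2 (0.0505 to 0.0576, over the alternatives 0.00789 to 0.468). Differences that became calls with 1 library left out were SYN1 without untreated Jurkat replicate 2 (0.0121, over the alternatives 0.0121 to 0.145), SNAP25 without untreated Jurkat replicate 3 (0.000762, over the alternatives 0.000762 to 0.751) and STX1A without untreated Jurkat replicate 1 or treated Molt-4 replicate 2 (0.0328 and 0.0476, over the alternatives 0.0328 to 0.157).

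**Figure D3:**
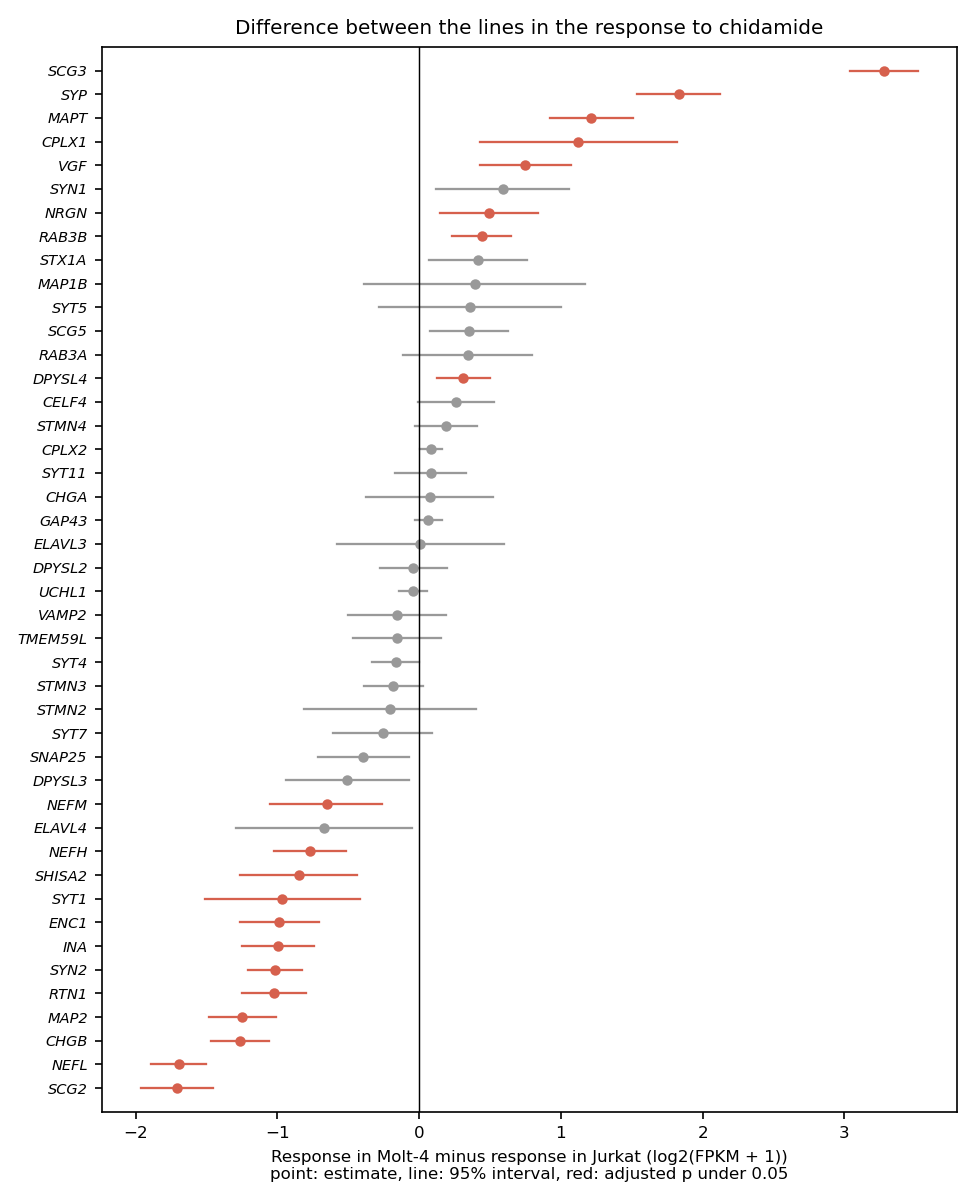
Difference of the responses, Molt-4 minus Jurkat, for each of the 44 genes on the log2(FPKM + 1) scale (x axis), with points for estimates and bars for 95% intervals. SCG3, SYP and MAPT lie farthest to the right at 3.28, 1.83 and 1.22, and SCG2 and NEFL farthest to the left at -1.71 and -1.69.

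Untreated, the lines already differed for 23 of the 44 genes. In untreated Molt-4 8 were higher than in untreated Jurkat (SCG3, SYP, STMN3, NEFH, INA, MAP1B, ENC1 and ELAVL4) and 15 lower (SCG5, CHGB, SYN1, SYT7, SNAP25, VAMP2, RAB3A, RAB3B, CPLX1, NRGN, NEFM, MAPT, DPYSL2, TMEM59L and SHISA2), where 20.4% and 26.2% of all genes were called in these directions (46.6% in either). Over all genes 4097 were higher and 5266 lower, a balance that turned to 4882 and 4426 with median-of-ratios scaling. Differences of at least 1 on the log2 scale were called for 4 in each direction (6.58% and 6.92% of all genes). On the log2(FPKM + 1) scale the widest gaps were those of NEFH and SHISA2. NEFH had a mean of 30.4 ± 1.19 FPKM (SD, n = 3) in Molt-4 and 0.0833 ± 0.0611 in Jurkat, and SHISA2 had 0.2 ± 0.12 in Molt-4 and 6.33 ± 1.56 in Jurkat. The call of SYT7 ended without untreated Jurkat replicate 2 or 3 or untreated Molt-4 replicate 1 or 3 (adjusted p 0.0562 to 0.0664, over the alternatives 0.00229 to 0.0664). That of ELAVL4 ended without any 1 of the untreated Jurkat libraries, untreated Molt-4 replicate 2 or 3 or treated Molt-4 replicate 1 (0.0566 to 0.127, over the alternatives 0.000463 to 0.127). VGF, at an adjusted p of 0.0501, was called as higher in Molt-4 without untreated Jurkat replicate 1, untreated Molt-4 replicate 3 or treated Molt-4 replicate 1 (0.0461, 0.0243 and 0.0494, over the alternatives 0.0243 to 0.459). Both treatment comparisons share their untreated libraries with this one, so levels and responses are given side by side and were not related to each other.

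The repressor REST was called in neither line. It read 14.07, 15.21 and 16.46 FPKM in untreated and 17.24, 17.24 and 17.79 in treated Jurkat, and 15.24, 16.99 and 15 in untreated and 14.93, 12.87 and 16.37 in treated Molt-4 (adjusted p = 0.126 and 0.424). Of REST and its corepressors, 18 genes, 8 were higher and 0 lower in Jurkat and 7 higher and 5 lower in Molt-4. Of all genes tested, 25.1% were higher and 17.1% lower in Jurkat, and 30.5% and 16.7% in Molt-4. HDAC1, a deacetylase of both complexes, had means of 303 and 317 FPKM in untreated and treated Jurkat (not called) and 235 and 266 in Molt-4 (adjusted p = 0.0446), and HDAC2 212 and 226 in Jurkat and 173 and 161 in Molt-4 (not called). HMG20B, a CoREST subunit, was 1.61-fold higher in treated Jurkat (adjusted p = 1.03e-05), and CTBP1, a corepressor, was 0.683 of the untreated mean in treated Molt-4 (adjusted p = 8.76e-05).

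Genes that work beside the members were taken from lists. Their counts stand beside shares of all genes of 25.1% higher and 17.1% lower in Jurkat and 30.5% and 16.7% in Molt-4. Of 14 tested genes of granule processing, 5 were higher and 1 lower in Jurkat and 7 and 2 in Molt-4. SCAMP5, a vesicle carrier protein, was 2.45-fold higher in Jurkat and 14.3-fold higher in Molt-4 (adjusted p = 1.2e-05 and 1.38e-08), whereas PTPRN2, a granule membrane protein, fell from a mean of 4.78 to 1.91 FPKM in Jurkat and from 7.44 to 2.77 in Molt-4 (adjusted p = 1.8e-05 and 4.76e-06). RAB27A, which docks granules in T cells too, was lower in Molt-4 (34.6 to 22.2 FPKM, adjusted p = 0.00996). PAM, which amidates peptides, was higher in Molt-4 (3.88 to 6.36, adjusted p = 0.0497). The Molt-4 calls of PAM and HDAC1 lie close to the threshold, and the alternatives were not examined for single genes of the lists. Of 24 further genes of synaptic release, 16 were higher and 1 lower in Jurkat and 15 and 1 in Molt-4. SV2A, a vesicle glycoprotein, went from 24.8 to 48.7 FPKM in Jurkat and from 16.3 to 31.5 in Molt-4 (adjusted p = 8.76e-08 and 8.19e-08), and VAMP1 and SYNGR1 were also higher in both lines. Of 23 broadly expressed relatives of the members, 8 were higher and 5 lower in Jurkat and 10 and 3 in Molt-4. VIM, vimentin, the intermediate filament of mesenchymal and lymphoid cells, went from 189 to 433 FPKM in Jurkat and from 323 to 919 in Molt-4, RTN3 was 1.33-fold and 1.42-fold higher, LMNB1 1.49-fold and 1.06-fold higher, and RTN4 was higher in Molt-4 alone (adjusted p = 0.179 and 0.0337). STMN1 was not analysed here.

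Markers of cell types moved with treatment too, and their part in the changes above was not tested. Beside their counts, 25.1% of all genes were higher and 17.1% lower in Jurkat, and 30.5% and 16.7% in Molt-4. Of 13 tested pan-neuronal markers 10 were higher and 0 lower in each line. Their summed level lay between 227 and 244 FPKM in untreated and 470 and 486 in treated Jurkat. In Molt-4 it lay between 169 and 176 untreated and 285 and 292 treated. BEX1, ENO2 and THY1 had the highest untreated means in Jurkat (113, 68.5 and 43.9 FPKM). In untreated Molt-4 these were BEX1 and ENO2 (134 and 31.6), and mean BEX1 was 119 in treated Molt-4 (not called). The vesicular glutamate transporter SLC17A6 was listed at 0 throughout. Mean SLC17A7, another such transporter, rose from 0.517 to 5.48 FPKM in Jurkat and from 1.54 to 7.1 in Molt-4 (adjusted p = 1.1e-05 and 5.34e-05). Neural fate transcription factors numbered 5 higher and 1 lower of 16 in Jurkat and 6 and 1 in Molt-4. Their sums were 17.2 to 22.7 against 31.4 to 32.3 and 16.8 to 19.3 against 19.1 to 22.5. These sums join opposite changes. In Molt-4 mean POU4F1 rose from 0.687 to 4.94 FPKM and mean POU3F2 fell from 6.58 to 2.19 (adjusted p = 1.07e-07 and 4.34e-07). In Jurkat mean POU4F1 rose from 10.2 to 14.8 and PAX6 from 2.66 to 7.91, while POU3F2 fell from 4.29 to 3.23. Glial markers had 2 of 9 higher and 0 lower in each line (sums of 23 to 27.6 against 23.9 to 29.4 and of 0.47 to 1.12 against 2.04 to 3.56), with OLIG2 at 0 throughout. T-lineage markers had 1 of 10 higher and 7 lower in Jurkat and 4 higher and 5 lower in Molt-4, and their sum went from between 2360 and 2417 to between 1457 and 1515 FPKM in Jurkat and from between 1020 and 1098 to between 820 and 852 in Molt-4. Markers of other lineages were also higher in part, in Jurkat and Molt-4 respectively: 1 and 3 of 4 for B cells, 1 and 4 of 6 for myeloid, 3 and 3 of 5 for erythroid, 2 and 4 of 5 for epithelial and 2 and 4 of 6 for fibroblast and endothelial markers, of which 1 was lower in Jurkat and no other was lower. In Molt-4 the B-cell sum lay between 1.26 and 2.7 FPKM untreated and 6.53 and 8.7 treated, and the myeloid sum between 1.09 and 1.89 and between 68.7 and 69.4. LYZ alone carried most of this myeloid rise, with a Molt-4 mean of 0.677 FPKM untreated and 62.9 treated. The erythroid sum there lay between 1959 and 2055 untreated and 2904 and 2963 treated, the epithelial sum between 108 and 114 and between 277 and 284, and the fibroblast and endothelial sum between 16.1 and 22.1 and between 62.3 and 67.2. In Jurkat the B-cell, myeloid and epithelial sums stayed at or under 3.43 FPKM, and the erythroid sum went from at most 1.93 to between 6.96 and 79.6. The fibroblast and endothelial sum lay between 76.2 and 86.4 untreated and 81.3 and 85.3 treated in Jurkat. That sum joins opposite changes: mean COL1A1 rose from 1.29 to 40.8 FPKM (adjusted p = 1.15e-06) and mean PECAM1 fell from 78.9 to 41.5 (adjusted p = 3.52e-05). In Molt-4 mean COL1A1 rose from 0.54 to 34 FPKM. MS4A1, the B-cell gene for CD20, was listed at 0 in every library of all groups but treated Jurkat, the myeloid gene MPO in both untreated groups, EPCAM in all Jurkat libraries, and DCN and CDH5 in all but treated Molt-4.

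**Figure D4:**
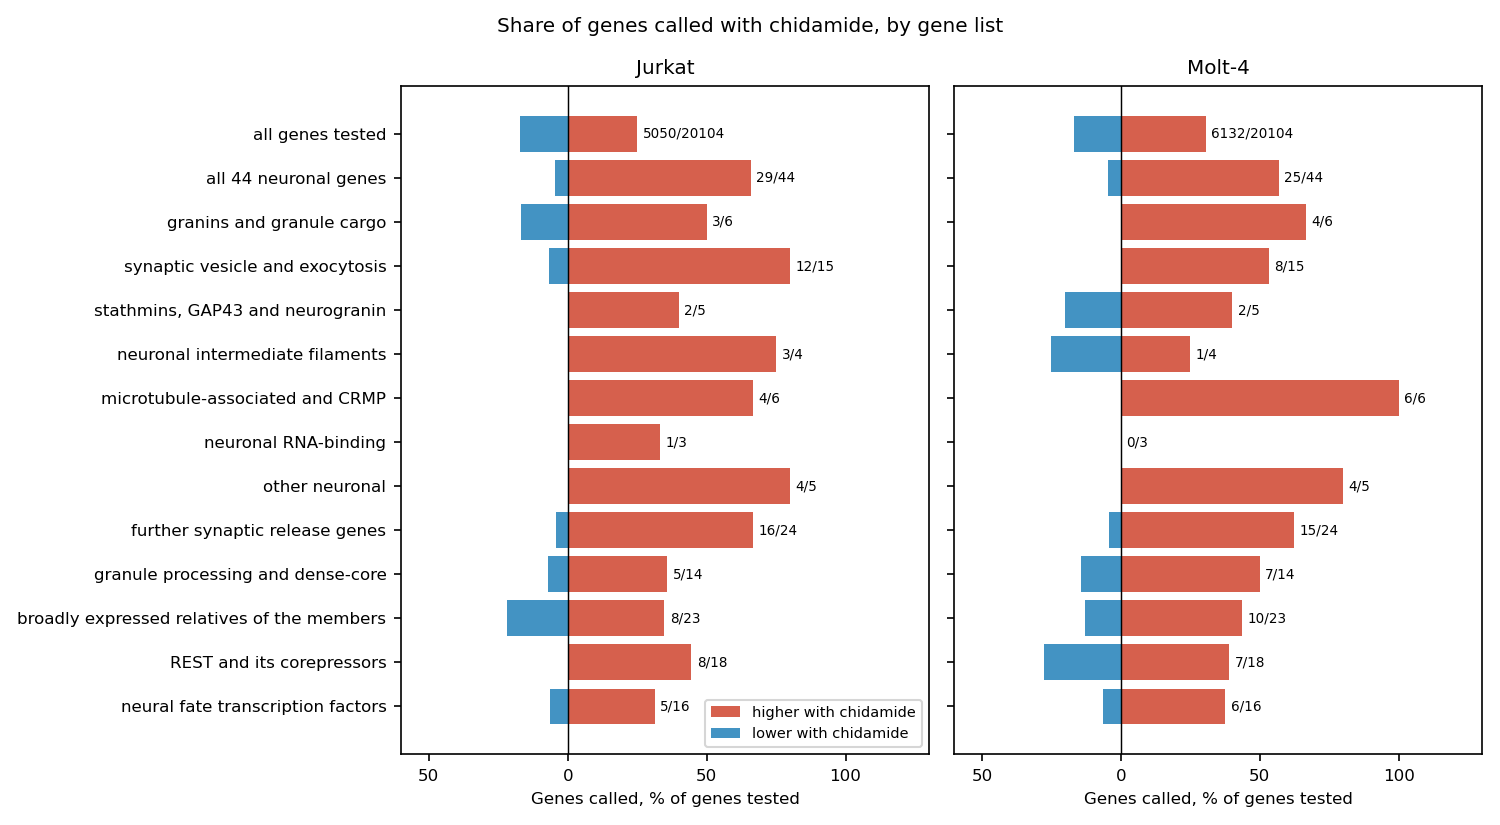
Share of tested genes called higher (bars to the right) and lower (bars to the left) with chidamide in each list, in percent, for Jurkat and Molt-4, with all 20104 genes tested as the top row and the number higher of the number tested beside each bar. Of the further synaptic release genes 16 of 24 were higher in Jurkat and 15 of 24 in Molt-4, and all 6 microtubule-associated and CRMP genes were higher in Molt-4.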

How the data were processed

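RNA was extracted from untreated and chidamide-treated Jurkat and Molt-4 cells and sequenced after library preparation with an Illumina TruSeq RNA kit, per the labels' protocols. J and M in the library titles were taken to mean Jurkat and Molt-4. The deposited values are FPKM per gene symbol, rounded to 2 decimals. Per the submitters' processing notes, STAR, HTSeq and DESeq2 were the authors' tools, on hg19. Versions, the order of steps and the strand of counting are not given in the sources used here. Read counts could not be recovered: 32.2% of 3913 ratios of low values lay within 0.15 of a whole number, where evenly spread ratios would give 30%. The depth of the libraries is therefore unknown.

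Of 25146 genes, 20104 were above 0 in at least 1 library and were tested. No minimum was set in the main fit, since it would admit a gene through the group where it is high; 31 of the 44 genes had at least 1 FPKM in at least 3 libraries. With 1 mean for each group, log2(FPKM + 1) of all 12 libraries was modelled in limma 3.58.1 in R 4.3.3 (lmFit, then eBayes with trend, on 8 residual degrees of freedom). The 4 contrasts were treatment in Jurkat, treatment in Molt-4, the Molt-4 response minus the Jurkat response, and untreated Molt-4 minus untreated Jurkat. P-values were two-sided and adjusted by the Benjamini-Hochberg method over all 20104 genes, and a gene was called at an adjusted p under 0.05. The model was also run on simulated data with changes set for some expressed genes in treated Jurkat alone. That run does not probe the scaling or changes of genes at low levels. Errors of FPKM means are SD over 3 libraries, and errors of changes are SE of the fit.

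All 44 genes were accounted for. Those with a group mean of at least 2 FPKM, 28 in number, are given with their values in each library of the lines that reach it, and the other 16 by their range. Of the lists of REST and its corepressors, granule processing, further synaptic release genes and broadly expressed relatives, the 4 genes with the highest mean FPKM and REST are named, except for an item that is not reported here. Marker lists are given as counts and sums, with some single genes named beside them. A fold of means is printed only where the untreated mean is at least 1 FPKM. The members and lists were chosen with earlier results of these data known, so no test of a list as a whole was made. Alternatives were a pseudocount of 0.1, a filter (at least 1 FPKM in 3 libraries), quantile normalization, median-of-ratios scaling, equal totals without 7SL RNA, a block for the replicate number, robust eBayes, a fit of the compared groups alone, a 2-fold requirement, and leaving out each library. For single genes, these alternatives were examined only among the 44. Promoters are from RefSeq (GRCh38.p14) and overlaps of exons from GENCODE 29, as relations between genes without coordinates.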

Additional observations from a re-analysis of the deposited data

Results flagged for a closer look

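For 20 of the 44 genes the response to chidamide differed between the lines by the test of the difference itself (limma, adjusted p under 0.05). Values are the response in Molt-4 minus that in Jurkat on the log2(FPKM + 1) scale. Of the granins, SCG3 (3.28) and VGF (0.75) were higher in Molt-4, and SCG2 (-1.71) and CHGB (-1.26) lower. Of the vesicle genes, SYP (1.83), CPLX1 (1.12) and RAB3B (0.44) were higher and SYN2 (-1.02) and SYT1 (-0.96) lower. NRGN differed by 0.50. The intermediate filament genes NEFL (-1.69), INA (-0.99), NEFH (-0.77) and NEFM (-0.65) were all lower. MAPT (1.22) and DPYSL4 (0.31) were higher and MAP2 (-1.25) lower. ENC1 (-0.99), RTN1 (-1.03) and SHISA2 (-0.85) were lower, the last with the opposite sign at a pseudocount of 0.1 (0.94). In CPLX1 the value joins a fall in Jurkat with an uncalled rise in Molt-4, and in NEFH it joins a fall in Molt-4 with a level of at most 0.18 FPKM in Jurkat.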

How the results depend on the processing

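Requiring a 2-fold change left 1525 calls in Jurkat (20 of the 44 genes), 1935 in Molt-4 (15), 1203 for the difference of responses (10) and 2715 between untreated lines (8). With 1 library left out, calls numbered 7523 to 8632 in Jurkat (27 to 32 of the 44), 8574 to 9899 in Molt-4 (27 to 30), 4349 to 5340 for the difference (17 to 22) and 8589 to 9252 between untreated lines (21 to 25). Every other alternative kept these 8 counts within 1.5 times the reported ones. Directions turned with quantile normalization for SNAP25 (-0.046) and NEFH (-0.14) in Jurkat, for CPLX1 (-0.15) and INA (-0.28) in Molt-4 and for SNAP25 (0.046) and TMEM59L (0.081) in the difference. With a pseudocount of 0.1 they turned in the difference for SYT7 (0.60), MAP1B (-0.86), TMEM59L (0.99) and SHISA2 (0.94), with equal totals without 7SL RNA for SYT11 (-0.020), and without untreated Jurkat replicate 3 for DPYSL2 (0.026, range with 1 library left out -0.11 to 0.026). Between untreated lines RTN1 turned without untreated Jurkat replicate 2 (0.0018, range -0.054 to 0.0018). The cause was not tested. Same-numbered libraries did not deviate together (correlations of -0.0384 to -0.00956 in Jurkat and -0.0128 to 0.0408 in Molt-4). Such correlations cannot show whether same-numbered cultures were set up or harvested together, which the labels do not state. With the replicate number as a block, 8288 genes were called in Jurkat, 9296 in Molt-4, 4585 for the difference and 9201 between untreated lines, and of the 44 genes 31, 29, 20 and 23. Depth is unknown and limits values under 1 FPKM in particular.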
